A study of Mus musculus with 15 samples.

Results

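The transcripts described here are those of 7 genes linked to T cell exhaustion: Pdcd1, Lag3, Havcr2, Btla, Cd160, Cd200 and Tox. They were taken by symbol, through GENCODE mouse release 21, from the 30949 genes listed in every library. All 7 were among the 29989 genes tested. The group was put together with earlier results of these data in view, among them the low Pdcd1 of unstimulated knockout cells, so that the contrast between genotypes without beads is given for these genes as a description only. The name of the group holds for 5 members: Cd200 encodes a ligand and Tox a nuclear protein.

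Regulatory T (Treg) cells, which restrain other immune cells, came from spleen and lymph nodes of C57BL/6 female mice that were Foxp3 YFP-Cre/+ and Dock8 flox/flox. KO cells were the YFP+ fraction, in which Cre driven by the Foxp3 gene can delete Dock8, a regulator of the actin cytoskeleton. WT cells were the YFP- fraction of the same kind of mice, with floxed Dock8 and no active Cre. Cells were sorted on CD25 and CD39 and held for 16 hours in culture. The 4 groups were KO with beads (2 libraries, numbered 4 and 5), WT with beads (3 libraries), unstimulated KO (6 libraries) and unstimulated WT (4 libraries). Beads carried antibodies to CD3 and CD28 and were given at 1 per cell; unstimulated cells had medium alone. YFP and Cre went with the KO label in all libraries, so that their effects and that of Dock8 loss cannot be told apart. Samples of a group were labelled independent with no word on whether mice or cultures were separate, and p-values therefore measure the spread between these samples.

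Coinhibitory receptors sit on the surface of activated T cells and damp signals from the T cell receptor and CD28. Several of them are switched on by activation itself and stay high when antigen persists, a state known as exhaustion in effector T cells. In Treg cells PD-1, LAG-3 and TIM-3 are also found on activated subsets, and their presence alone does not mean that the cells are exhausted.

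Values are TPM, which scale each gene by its length and each library by its total, and keep no read depth. The level of Dock8 was 7.9 and 5.82 TPM in KO with beads and 8.71, 10.1 and 8.91 TPM in WT with beads. Without beads it ran from 6.7 to 11.9 TPM in KO, with a median of 7.9, against 13.7, 13.7, 9.15 and 22 TPM in WT. Dock8 was thus above 0 in the KO libraries, and genotypes overlapped without beads. The labels do not say which exons are floxed, so that the level over the whole gene is an incomplete check of the deletion. The Treg gene Foxp3 was read in all libraries, at 42.2 to 42.7 TPM in KO with beads, 88.6 to 106 TPM in WT with beads, 6.29 to 26 TPM in unstimulated KO and 29.3 to 51.6 TPM in unstimulated WT. The summed level of 9 T and Treg cell markers was 1545 to 1644 TPM in KO with beads and 1476 to 1626 TPM in WT with beads. It was 461 to 715 TPM in unstimulated KO and 803 to 1405 TPM in unstimulated WT, with no overlap. In bulk RNA, fewer cells of a type and less RNA per cell cannot be told apart.

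The genes lie on 6 chromosomes in mm10. Pdcd1 is at chr1:94038305-94052553 on the minus strand, Lag3 at chr6:124904361-124911705 (minus), Havcr2 at chr11:46454935-46481255 (plus) and Tox at chr4:6686353-6991557 (minus). Btla, at chr16:45224315-45257670 (plus), and Cd200, at chr16:45382135-45409053 (minus), are neighbours on chromosome 16 with 124 kb between them. Cd160 is at chr3:96798763-96829351 (minus) and shares 68 bases with Pdzk1 on the other strand, which reached 9.75 TPM. Tox shares 15992 bases with the antisense gene Gm11802, which reached 12.7 TPM. Whether counting used the strand is not given in the sources used here, so reads of Cd160 and Tox cannot be told apart from those of these partners where they overlap.

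RefSeq held a start-site window for 5 of the 7 genes, from 250 bases before to 50 bases after the start (GRCm38.p6); Lag3 and Tox had none in the table used. The windows of Pdcd1, Btla and Cd200 are shown because these genes were called higher with beads in KO cells, as given below, and had a window. Capitals mark the letters GGAAA, the core bound by NFAT factors, or its reverse complement TTTCC.
Pdcd1, chr1:94052504-94052803, minus strand: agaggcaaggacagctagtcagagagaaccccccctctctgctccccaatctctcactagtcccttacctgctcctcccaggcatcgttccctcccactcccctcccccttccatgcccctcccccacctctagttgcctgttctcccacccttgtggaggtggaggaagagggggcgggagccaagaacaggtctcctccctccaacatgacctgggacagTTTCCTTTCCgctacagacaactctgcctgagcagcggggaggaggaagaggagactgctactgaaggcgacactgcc
Btla, chr16:45224087-45224386, plus strand: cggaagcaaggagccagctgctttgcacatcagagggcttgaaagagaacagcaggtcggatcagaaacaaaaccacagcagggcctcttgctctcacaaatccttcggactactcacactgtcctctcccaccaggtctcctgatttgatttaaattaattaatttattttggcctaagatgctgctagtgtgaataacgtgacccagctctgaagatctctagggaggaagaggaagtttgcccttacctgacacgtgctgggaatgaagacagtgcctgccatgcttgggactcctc
Cd200, chr16:45409004-45409303, minus strand: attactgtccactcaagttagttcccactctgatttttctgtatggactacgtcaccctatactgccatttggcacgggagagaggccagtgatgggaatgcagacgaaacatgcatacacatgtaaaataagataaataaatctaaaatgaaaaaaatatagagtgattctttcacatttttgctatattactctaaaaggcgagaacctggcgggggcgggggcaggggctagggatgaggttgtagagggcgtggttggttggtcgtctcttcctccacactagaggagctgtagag
Both strands were searched, and matches of a motif to itself could overlap. The Pdcd1 window held 2 cores side by side, which began 28 and 23 bases before the start. The core was found in 61.5% of 32544 such windows, and 26.8% held at least 2, a feature Pdcd1 shares with many genes. Neither the Btla nor the Cd200 window held one. The AP-1 letters TGANTCA, found in 7.79% of windows, were in the Havcr2 window and in none of the 3 printed.

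Pdcd1 encodes PD-1, which recruits phosphatases to the T cell receptor and CD28 when it binds PD-L1 or PD-L2. Its level with beads was 41.5 and 40 TPM in KO and 35, 38.3 and 34 TPM in WT. Without beads it ran from 2.26 to 16.2 TPM in KO, with a median of 5.73, against 70.3, 59, 30.8 and 94.5 TPM in WT. All 6 unstimulated KO libraries lay below every other library of the study, and the unstimulated WT libraries were the most scattered, 3 of them above all bead libraries and 1 below. The mean in unstimulated KO was 6.98 ± 5.24 TPM (SD, n = 6), and that in unstimulated WT 63.7 ± 26.4 TPM (SD, n = 4). The difference, KO minus WT, was -3.16 on the log2(TPM + 1) scale. The group was chosen by TPM in these libraries, this difference among them. Pdcd1 was the 1 member of 7 called at a limma adjusted p under 0.05, where 0.0734% of the 29989 genes were called, and nothing is read from that count. Among the genes of its own library, Pdcd1 ranked at a median percentile of 92 in KO and 91.1 in WT with beads, and of 68.8 in unstimulated KO and 95.5 in unstimulated WT.

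Pdcd1 was not called between genotypes with beads. The limma difference, KO minus WT, was 0.18 (SE 0.61, 95% interval -1.12 to 1.49, adjusted p = 1), although both KO libraries read above all 3 WT libraries; it was -0.06 when libraries were scaled to 4 T cell genes (Cd3e, Cd3g, Cd4 and Trac), a choice made after seeing the data. The interval leaves room for a more than 2-fold difference in either direction. None of the 7 genes was called in this comparison by limma, and 1 had an unadjusted p under 0.05, while 0.00333% of all genes tested were called.

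Pdcd1 was called higher with beads in KO cells. The change there, beads minus unstimulated, was 2.63 (SE 0.55, limma adjusted p = 0.00773), from means of 40.8 ± 1.06 TPM with beads (SD, n = 2) and 6.98 ± 5.24 TPM without. The low unstimulated KO libraries that chose the gene are one side of this change, which is therefore not independent of the choice. In WT cells the mean was 35.8 ± 2.23 TPM with beads (SD, n = 3) and 63.7 ± 26.4 TPM without, and the change of -0.71 (SE 0.51, 95% interval -1.80 to 0.38) did not pass the test (limma adjusted p = 0.408). The difference between these responses, KO minus WT, was 3.34 (SE 0.75, 95% interval 1.74 to 4.94) and was not called either (limma adjusted p = 0.581). Only 0.00333% of genes were called for such a difference. Its parts for Pdcd1, KO minus WT, were 0.18 with beads and -3.16 without. The second of these was in view when the group was chosen, so this difference is not independent of the choice either, and nothing is read from its interval. The call for KO cells rests on 2 bead libraries. The change was 2.61 without bead library 4 and 2.66 without bead library 5, fits in which the KO bead group had no replicate.

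**Figure D1:**
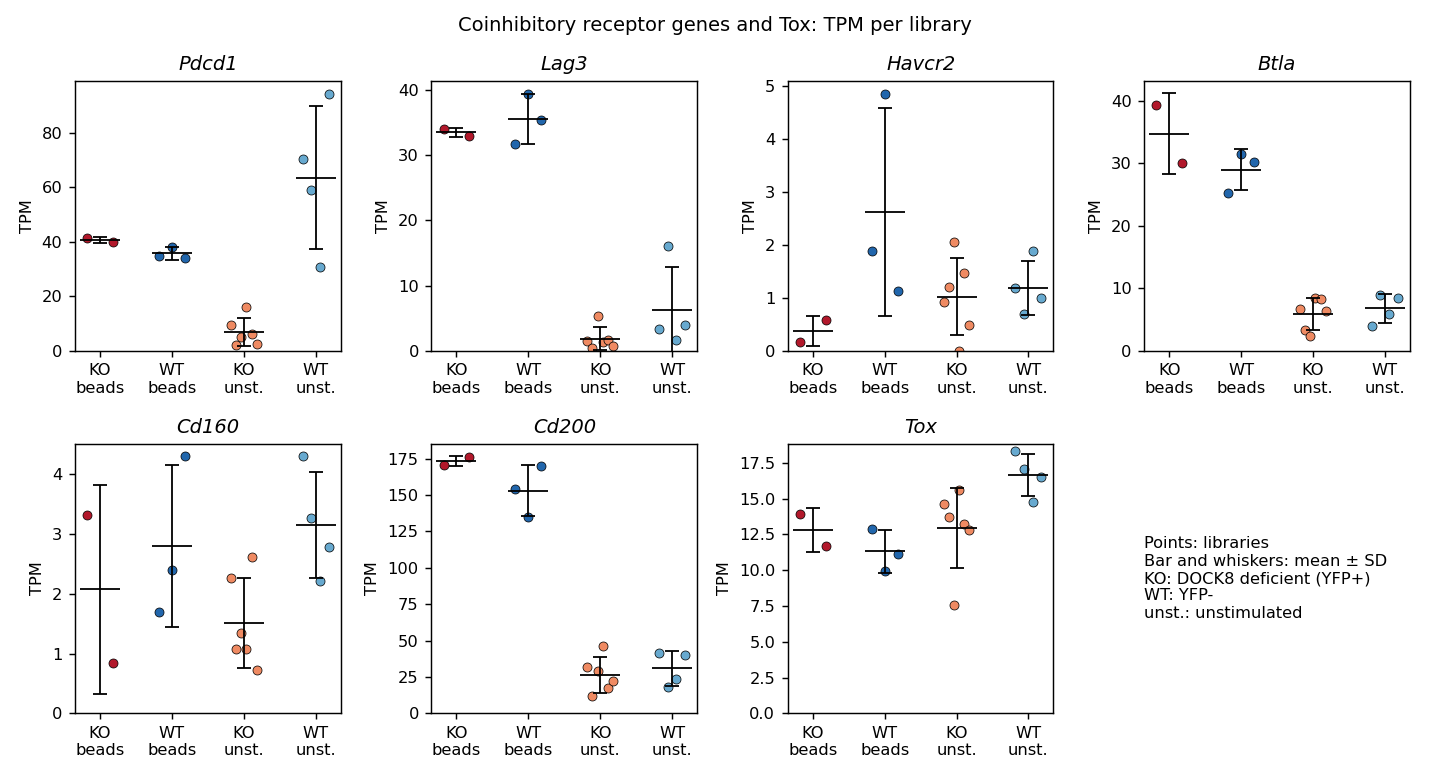
TPM of each of the 7 genes (vertical axes, one panel a gene) in KO with beads, WT with beads, unstimulated KO and unstimulated WT; points are libraries, and bars and whiskers are mean ± SD. Lag3, Btla and Cd200 are higher in both bead groups, while Pdcd1 is low in the 6 unstimulated KO libraries alone.

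Btla encodes a receptor of the same immunoglobulin superfamily that binds HVEM, the product of Tnfrsf14. It was read at 39.3 and 30.1 TPM in KO with beads and at 25.2, 31.4 and 30.2 TPM in WT with beads. Unstimulated KO libraries ran from 2.43 to 8.39 TPM, with a median of 6.52, and unstimulated WT libraries held 3.92, 8.97, 5.81 and 8.36 TPM. Bead libraries all lay above unstimulated ones, and the genotypes overlapped in both conditions. The bead response was 2.46 in KO (SE 0.43, limma adjusted p = 0.00241) and 2.00 in WT cells (SE 0.40, limma adjusted p = 0.00531). The responses differed by 0.46 (SE 0.58, 95% interval -0.78 to 1.70, limma adjusted p = 0.999). In KO cells the Btla change was 2.27 without bead library 4 and 2.64 without bead library 5, fits in which the KO bead group had no replicate.

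Lag3 encodes a receptor that binds MHC class II. Its level was 34 and 33 TPM in KO with beads and 31.8, 39.4 and 35.4 TPM in WT with beads. Without beads it was 0.478 to 5.37 TPM in KO, with a median of 1.43, and 3.4, 16.1, 1.64 and 3.93 TPM in WT. Every unstimulated library lay below the bead libraries, and 4 of the 6 unstimulated KO libraries lay below every WT library. The bead response of Lag3 was 3.77 in KO (SE 0.61, limma adjusted p = 0.00147) and 2.70 in WT cells (SE 0.57, limma adjusted p = 0.00697). The responses differed by 1.07 (SE 0.83, 95% interval -0.69 to 2.84, limma adjusted p = 0.999), an interval that takes in both no difference and a large one.

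Cd200 encodes a membrane glycoprotein that signals through the receptor CD200R on myeloid cells. It was the highest of the 7 with beads, at 171 and 176 TPM in KO and 154, 135 and 170 TPM in WT. Without beads it ran from 11.7 to 46.4 TPM in KO, with a median of 25.5, and was 41.7, 18, 23.8 and 40.3 TPM in WT. The bead libraries again stood clear of the others, and both KO bead libraries lay just above the 3 WT ones. The response was 2.80 in KO (SE 0.44, limma adjusted p = 0.00124) and 2.34 in WT cells (SE 0.41, limma adjusted p = 0.00255). The genotypes with beads differed by 0.18 (SE 0.49, 95% interval -0.85 to 1.22, limma adjusted p = 1). Cd200 and Lag3 remained called in both genotypes under each alternative run in which every group kept a replicate.

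Together 4 of the 7 genes were called higher with beads in KO cells (Pdcd1, Lag3, Btla and Cd200) and 3 in WT cells (Lag3, Btla and Cd200). In KO cells 5.95% of all genes tested were called higher and 8.11% in either direction, and in WT cells 4.6% and 11.2%. The median bead response of the 7 genes was 2.46 in KO and 0.62 in WT cells, beside medians of -0.23 in KO and -0.44 in WT cells over all genes. The middle gene was Btla in KO and Havcr2 in WT cells. Pdcd1, at 2.63 in KO and -0.71 in WT cells, changed sides of the middle. The gap between the medians therefore hangs on Pdcd1 and does not measure the group. For the other members the difference of responses, KO minus WT, ran from -1.11 (Havcr2) to 1.07 (Lag3), and limma called none. Scaling to the 4 T cell genes took the KO median of all genes to -0.93 and the KO responses to 1.36 for Pdcd1, 2.67 for Lag3, 1.41 for Cd200 and 1.17 for Btla, the last no longer called (limma adjusted p = 0.0581). Those 4 genes had higher means with beads in KO cells. With beads and without, Trac was 590 and 118 TPM and was called higher. Cd3e was 147 and 58.8 TPM, Cd3g 244 and 116 TPM, and Cd4 68.3 and 41.6 TPM. Scaling to them thus takes their own rise out of every KO response. The bead comparisons use the same unstimulated libraries as the genotype contrast without beads.

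**Figure D2:**
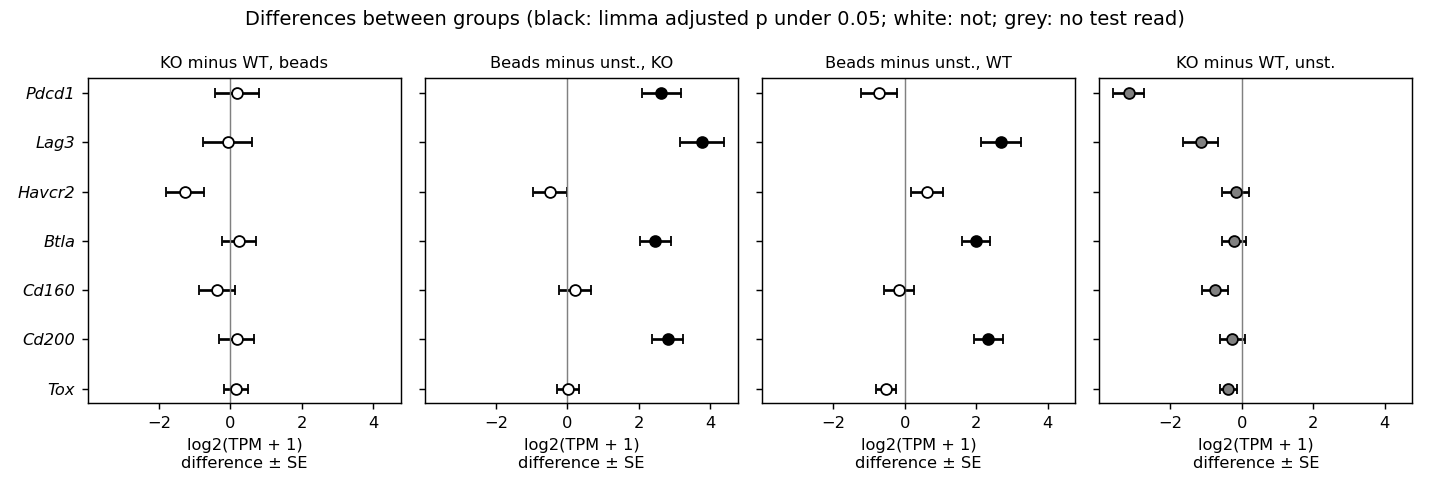
Difference in log2(TPM + 1) with its SE (whiskers) for each of the 7 genes, one panel a comparison: KO minus WT with beads, beads minus unstimulated in KO and in WT, and KO minus WT unstimulated. Black points passed the limma test, white ones did not, and no test is read for the grey ones; Lag3, Btla and Cd200 are black in both bead panels, and Pdcd1 in the KO one, at 2.63.

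Havcr2 encodes TIM-3, for which galectin-9 is a ligand. It was scarce throughout, at 0.172 and 0.573 TPM in KO with beads and 1.89, 4.86 and 1.13 TPM in WT with beads. Unstimulated KO libraries ran from 0 to 2.06 TPM, with a median of 1.06, and unstimulated WT libraries held 1.19, 0.688, 1.89 and 1 TPM. With beads both KO libraries were below all 3 WT libraries. The difference of -1.28 (SE 0.53, 95% interval -2.42 to -0.15) did not pass the test across all genes (limma adjusted p = 1), and it is the 1 member with an unadjusted p under 0.05 in that comparison. Neither bead response was called, with changes of -0.49 in KO (SE 0.48, limma adjusted p = 0.609) and 0.62 in WT cells (SE 0.45, limma adjusted p = 0.405). At about 1 TPM and an unknown depth, such values can rest on few reads.

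Cd160 encodes a glycolipid-anchored receptor that shares the ligand HVEM with BTLA. Its level was 3.31 and 0.838 TPM in KO with beads and 1.69, 2.4 and 4.31 TPM in WT with beads. It ran from 0.726 to 2.62 TPM in unstimulated KO, with a median of 1.21, and was 4.31, 3.27, 2.22 and 2.78 TPM in unstimulated WT. The groups overlapped in each comparison, and 4 of the 6 unstimulated KO libraries lay below every WT library. The bead response was 0.21 in KO (SE 0.45, limma adjusted p = 0.835) and -0.16 in WT cells (SE 0.42, limma adjusted p = 0.846). The sign of either response changed under some alternatives.

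Tox encodes a DNA-binding protein of the HMG-box family that maintains the exhausted state in CD8 T cells. Its range was narrow. It was read at 13.9 and 11.7 TPM in KO with beads and 12.9, 9.93 and 11.1 TPM in WT with beads. Unstimulated KO libraries ran from 7.6 to 15.6 TPM, with a median of 13.4, and unstimulated WT libraries held 18.3, 17.1, 14.8 and 16.5 TPM. All 3 WT bead libraries were below every unstimulated WT library, but the change of -0.52 (SE 0.29, 95% interval -1.13 to 0.08) was not called (limma adjusted p = 0.261). In KO cells the change was 0.01 (SE 0.31, 95% interval -0.64 to 0.66, limma adjusted p = 0.988). The KO value depends on the scaling: it was -0.43 when libraries were scaled to abundant genes (limma adjusted p = 0.369), and -1.29 when they were scaled to the 4 T cell genes (limma adjusted p = 0.0238). The means of those 4 genes rose with beads in KO cells, which by itself lowers the last value.

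The order of the 7 genes by mean TPM differed between groups. With beads Cd200 was first in both genotypes, at 173 ± 3.85 TPM in KO (SD, n = 2) and 153 ± 17.4 TPM in WT (SD, n = 3), followed by Pdcd1, then Btla and Lag3, then Tox. The ranges of Btla and Lag3 overlapped in KO, and those of Pdcd1 and Lag3 in WT. Without beads Cd200 led in KO at 26.4 ± 12.3 TPM (SD, n = 6), while Pdcd1 led in WT ahead of Cd200 at 31 ± 11.8 TPM (SD, n = 4). The ranges of each pair of neighbours in that order overlapped in unstimulated KO libraries. Havcr2 was last in all 4 groups.

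Ratios between genes of 1 library do not depend on how the library was scaled, and the following ones were chosen after the values were seen. Pdcd1 made up 13.7 and 13.7% of the summed TPM of the 7 genes in KO with beads, and 13.4, 14.6 and 11.9% in WT with beads. Its share was 5.53 to 18.2% in unstimulated KO, with a median of 11.1%, and 49.1, 47.9, 38 and 56.5% in unstimulated WT. The unstimulated WT libraries stood apart from the other 3 groups. Relative to Tox, Pdcd1 was 2.98 and 3.42 in KO with beads, 2.71, 3.86 and 3.06 in WT with beads, 0.165 to 1.04 in unstimulated KO and 3.84, 3.45, 2.07 and 5.72 in unstimulated WT. By that measure the unstimulated KO libraries stood apart. Cd200 relative to Tox was 12.3 to 15.1 in KO with beads and 11.9 to 15.3 in WT with beads, against 0.856 to 3.81 in unstimulated KO and 1.05 to 2.44 in unstimulated WT, so that it separated beads from medium and not the genotypes.

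**Figure D3:**
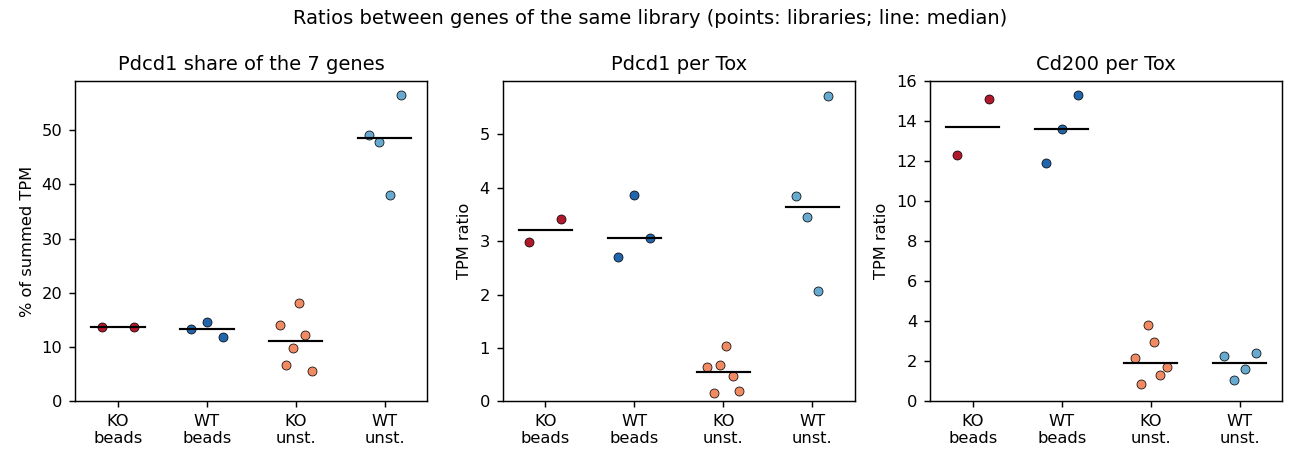
Pdcd1 as a percentage of the summed TPM of the 7 genes, and the TPM ratios of Pdcd1 and of Cd200 to Tox, in KO with beads, WT with beads, unstimulated KO and unstimulated WT; points are libraries and lines are medians. Pdcd1 per Tox is at most 1.04 in unstimulated KO and at least 2.07 in the other groups, whereas Cd200 per Tox parts beads from medium.

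Markers of other cell types were summed in each library. Over 8 B cell markers the summed level was 23.1 to 23.5 TPM in KO with beads, 7.72 to 23.9 TPM in WT with beads, 14.8 to 40.2 TPM in unstimulated KO and 16.7 to 27.4 TPM in unstimulated WT. Over 8 of 9 myeloid and dendritic markers listed in all libraries it was 4.28 to 10.5 TPM in KO and 4.05 to 7.75 TPM in WT with beads, and 4.07 to 57.3 TPM in KO and 13.2 to 27.8 TPM in WT without. Over 8 markers of CD8 T and NK cells it was 31.1 to 47 TPM in KO and 30.3 to 61.2 TPM in WT with beads, and 30.8 to 62.6 TPM in KO and 35.9 to 82.5 TPM in WT without. In KO with beads 1 marker of each of the last 2 lists, Tyrobp and Gzma, was at 0 in both libraries. The others were read there, with means such as 12.9 TPM for Klrb1c, 9.48 TPM for Nkg7 and 2.1 TPM for Fcgr3. Unstimulated KO library 3 had the highest sum of its group in all 3 lists and also its highest Pdcd1, 16.2 TPM; without it the difference between genotypes in Pdcd1 was -3.43. When libraries were scaled to the 4 T cell genes, that difference was -2.21, where the median of all genes was 0.56 instead of -0.11. The part of the lower T and Treg marker sum in the Pdcd1 difference was otherwise not tested.

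Of 11 ligands and counter-receptors of these proteins, 4 were called higher with beads in KO cells, and 3 higher and 1 lower in WT cells. Of all genes tested, 5.95% were called higher in KO and 4.6% in WT cells, and 8.11% and 11.2% in either direction. These shares also stand beside the counts of the lists that follow, all chosen with earlier results of these data known. Cd274, which encodes PD-L1, was 22.8 ± 5.03 TPM in KO (SD, n = 2) and 18.5 ± 3.36 TPM in WT with beads (SD, n = 3), against 5.53 ± 1.97 TPM in KO (n = 6) and 6.06 ± 2.3 TPM in WT without (n = 4). Its bead response was 1.91 in KO (limma adjusted p = 0.00765) and 1.51 in WT cells (limma adjusted p = 0.0169). Pdcd1lg2, which encodes PD-L2, responded by 2.57 in KO and 2.53 in WT cells (limma adjusted p = 0.00606 and 0.00405). Tnfsf14, another partner of HVEM, responded by 2.21 and 2.01 (limma adjusted p = 0.0455 and 0.0423). Hmgb1 and Ceacam1 encode other reported partners of TIM-3; the first was called higher in KO cells and the second lower in WT cells. Lgals9, which encodes galectin-9, was second in level in the list, at 41.7 ± 1.31 TPM in KO and 51.2 ± 16.6 TPM in WT with beads, and was not called. The 4 calls in KO cells rest on 2 bead libraries. Without either of them the group has no replicate, so such fits cannot show whether these calls would hold.

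Among 11 signalling and turnover partners, Ptpn6, which encodes the phosphatase SHP-1, and Csk, a kinase that restrains Lck, were called higher with beads in both genotypes. Ptpn6 was 184 ± 5.14 TPM in KO (SD, n = 2) and 127 ± 21.1 TPM in WT with beads (SD, n = 3), against 18.2 ± 5.56 TPM in KO and 29.5 ± 8.59 TPM in WT without. Its response was 3.32 in KO (SE 0.33, limma adjusted p = 6.76e-05) and 2.10 in WT cells (SE 0.31, limma adjusted p = 0.00105). Cmtm6, whose product keeps PD-L1 at the cell surface, was called in WT cells. Lck itself, the highest in the list, was not called.

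Of 16 transcription factors tied to the exhaustion programme, 4 were called higher with beads in both genotypes: Nr4a1 and Nr4a3, early response genes of the T cell receptor, and Batf and Irf4, which act as partners on DNA. The share called higher over all genes was 5.95% in KO and 4.6% in WT cells. Irf4 responded by 5.16 in KO (SE 0.41, limma adjusted p = 2.26e-05) and 5.53 in WT cells (SE 0.38, limma adjusted p = 7.5e-06). Batf was 83.5 ± 9.74 TPM in KO and 316 ± 94.4 TPM in WT with beads, with no overlap, and the difference of -1.87 (SE 0.72) was not called (limma adjusted p = 1). WT cells also had Tbx21 called higher and Tcf7, a factor of less differentiated T cells, called lower. Tox was not called beside them.

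**Figure D4:**
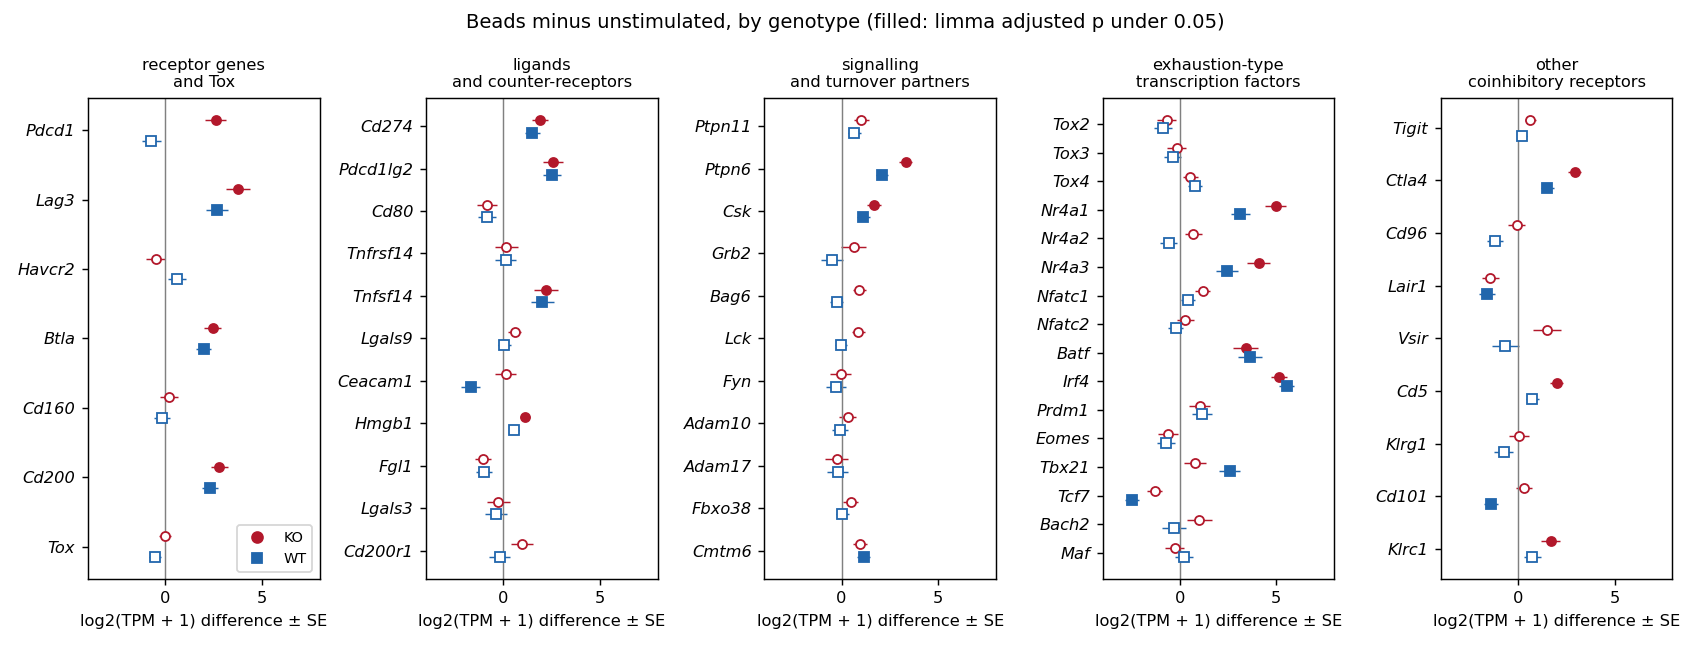
Bead response, beads minus unstimulated, in log2(TPM + 1) with its SE (horizontal axes) for each of the 7 genes and of 4 lists; red circles are KO and blue squares WT cells, filled where limma called the gene. Irf4 lies farthest to the right, at 5.16 in KO and 5.53 in WT, and Tcf7 at -2.47 in WT is the lowest filled square.

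Other coinhibitory receptors, 9 of 10 listed, gave 3 calls with beads in KO cells (Ctla4, Cd5 and Klrc1, all higher) and 3 in WT cells (Ctla4 higher, Lair1 and Cd101 lower). Ctla4, which encodes a competitor of CD28 for its ligands, responded by 2.93 in KO (SE 0.35, limma adjusted p = 0.000201) and 1.51 in WT cells (SE 0.33, limma adjusted p = 0.00842). Tigit, a receptor for CD155, was 75.4 ± 7.95 TPM in KO and 225 ± 33.7 TPM in WT with beads, beside 49.3 ± 9.65 TPM in KO and 197 ± 29.9 TPM in WT without. Neither of its bead responses was called, at 0.63 in KO (limma adjusted p = 0.2) and 0.20 in WT cells (limma adjusted p = 0.671). Without beads, KO minus WT was below 0 for 8 of the 9 receptors, with a median of -1.14 beside -0.11 for all genes. Tigit, among them, ran from 31.5 to 59.4 TPM in unstimulated KO and from 176 to 239 TPM in unstimulated WT. Low values in unstimulated KO were thus not particular to Pdcd1. The list was chosen with earlier results known, so no test is read there. PD-1 is also a marker of follicular T cells, and of 9 follicular genes tested Icos was called higher with beads in KO cells and Cxcr5 and Bcl6 lower in WT cells. Between genotypes with beads, limma called none of the genes of these 5 lists, with 0 to 3 of a list at an unadjusted p under 0.05, and 1 gene in all.

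Genes whose pattern over the 15 libraries was most like that of each member were ranked among 8365 genes that averaged 5 TPM or more, by the root mean square distance between log2(TPM + 1) values centred on each gene. For Pdcd1 the nearest were Usp5, Cd37 and Arl6ip4, at distances of 0.73, 0.75 and 0.76, where the median gene stood at 1.47. For Lag3 they were Gpr83 (0.52), Mcm3 and Hmga1 (both 0.58), with a median of 1.75. Btla was followed by Hnrnpc (0.34), Eif2s2 (0.35) and Utp15 (0.37), and near Cd200 were Srfbp1 (0.35) and Kars (0.39). For Tox the nearest were Ncor1, Atg12 and Mfap1b, each at 0.24, with a median of 0.80. No gene came as near to Pdcd1 as the nearest genes did to the other members ranked. Havcr2 and Cd160 had means under 5 TPM and were not ranked.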

How the data were processed

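Gene expression was measured by Smart-Seq2, an RNA-seq method for small cell numbers, in 15 libraries. The authors deposited 1 table of TPM per library; the submitters' processing notes name STAR, Salmon, DESeq2 and mm10 without versions or roles. Deposited TPM keep no read counts, so depth is unknown. Unstimulated libraries list 36904 genes and bead libraries 31785 genes, with 30949 in both, so that neither list contains the other. Whether the tables with and without beads were made in the same way is not given. A difference in processing cannot be told apart from a bead response in these data.

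Groups came from the labels. The 29989 genes that reached 1 TPM in 2 or more libraries were fitted as log2(TPM + 1) with limma 3.58.1 under R 4.3.3. The fit had a mean for each of 4 groups, a variance trend and 11 residual degrees of freedom. Adjustment was by Benjamini-Hochberg over all genes fitted, and calls were made below an adjusted p of 0.05. Differences on this scale understate changes of low genes. The script was tested on simulated data. The 5 comparisons were KO against WT with and without beads, beads against medium in each genotype, and the difference between those responses.

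The 7 members and the 9 other lists were chosen with earlier results of these data known. Genes named were all members, from each list the genes called and the 2 with the highest mean TPM where described, and the 3 genes nearest to each member with a mean of at least 5 TPM, leaving out predicted genes, RIKEN clones, pseudogenes and antigen receptor segments; Dock8, Foxp3, Tyrobp, Gzma and the within-library ratios were added outside that rule, and 1 gene that it names is not reported here. Alternatives were other pseudocounts (0.1 and 5), filters (none and 5 TPM), scaling to 815 abundant genes, quantile normalization, only the groups compared, the title number as a replicate block, each library left out, and, chosen after seeing the data, scaling to 4 T cell genes. Deviations from the group means correlated at -0.0393 to 0.113 over 11272 genes for same-numbered libraries and at -0.145 to 0.0939 for others. The highest value, 0.113, was that of the unnumbered unstimulated WT and KO libraries. With so few libraries in a group this check cannot exclude pairing. The labels do not say what the numbers mark, and the main fit did not use them.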

Additional observations from a re-analysis of the deposited data

Results flagged for a closer look

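In 14 groups of 4 or more libraries of a member, 3 values, in 2 libraries, stood far from the others of their group by Dixon's test, which chance gives in about 1 in 20 groups. Lag3 was 5.37 TPM in unstimulated KO library 2, where the gap to the nearest library was 0.754 of the group's range (critical value 0.625). The same library had the lowest Tox of its group, 7.6 TPM, with a gap of 0.657 of the range. Lag3 was 16.1 TPM in unstimulated WT library 1, with a gap of 0.842 of the range (critical value 0.829).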

How the results depend on the processing

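In the 4 comparisons with a test, 453 of 482 member differences recomputed under the alternatives kept direction and call, 6 lost the call and 23 changed sign. Most of the 482 belonged to differences not called in the main fit, which count as kept by staying uncalled. The 6 losses all fell on Pdcd1 and Btla for beads in KO cells. Between genotypes without beads no test is read, since the group was chosen with that contrast in view. As a description, its call count of 1 of 7 was 0 with only the groups compared and 0 with the title number as a replicate block. It was 0 to 1 with a library left out. Leaving out WT library 1 gave the 0, while the difference in Pdcd1 stayed between -3.46 and -2.21 in 19 alternatives. For beads in KO cells the count of 4 was 2 to 4 with a library left out, with Pdcd1 and Btla lost without KO bead library 4. Pdcd1 lost that call with only the groups compared (limma adjusted p = 0.0504), and Btla with the replicate block (2.11, limma adjusted p = 0.062) and with scaling to 4 T cell genes (1.17, limma adjusted p = 0.0581). The title numbers were not shown to pair samples.

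Values that changed sign were at most 0.54 in size with TPM as deposited. With scaling to 4 T cell genes, KO minus WT without beads became 0.33 for Havcr2, 0.70 for Btla, 0.76 for Cd200 and 0.63 for Tox, and with beads -0.06 for Pdcd1, Cd200 and Tox. The difference of bead responses became -0.70 for Btla, -0.41 for Cd160, -0.83 for Cd200 and -0.69 for Tox, and the KO bead response -0.63 for Cd160 and -1.29 for Tox. With scaling to abundant genes, KO minus WT without beads became 0.02 for Havcr2, 0.11 for Btla and 0.10 for Cd200, the KO bead response -0.07 for Cd160 and -0.43 for Tox, and the difference of responses -0.02 for Cd200. Quantile normalization gave 0.02 for Cd200 without beads, 0.46 for Cd160 with beads in WT and -0.15 for Tox with beads in KO. The replicate block gave 0.33 for Lag3 and -0.25 for Btla between genotypes with beads, and -0.03 for Tox with beads in KO.

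With a library left out, Havcr2 without beads ran from -0.31 to 0.01 and Tox with beads in KO from -0.12 to 0.13, -0.10 included. Cd160 ran from -0.99 to 0.24 between genotypes with beads, from -0.40 to 0.83 for beads in KO, from -0.43 to 0.06 for beads in WT and from -0.24 to 0.99 for the difference of responses. Scaling moved the median of all genes: with abundant genes it was 0.12 without beads, -0.46 for the KO bead response and -0.06 for the difference of responses, and with 4 T cell genes 0.56, -0.93 and -0.59, where the deposited TPM gave -0.11, -0.23 and 0.27. Called genes for beads in KO numbered 1785 higher and 646 lower, but 1273 and 1832 with abundant genes and 380 and 5895 with T cell genes. The means of the 4 T cell genes themselves rose with beads in KO cells, so scaling to them shifts all genes downward there. For beads in WT they were 1378 and 1988, but 1201 and 896 with quantile normalization. Depth is unknown, and levels near 1 TPM (Havcr2, Cd160) are the least certain.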
